A study of Mus musculus with 17 samples.

Results

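Mediator, TFIID and the general transcription factors of RNA polymerase II were followed through bulk RNA sequencing of mouse haematopoietic stem cells. The genes were taken by name: protein-coding genes of the GENCODE M21 annotation whose symbol begins with Med or Taf and a digit, or with Gtf2. This gave 69 of the 54838 genes in the deposited count files, made up of 30 Med, 23 Taf and 16 Gtf2 genes. Of these, 66 had enough reads to be tested, and Med10, Taf9 and Taf7l did not.

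The cells came from C57BL/6 Jrj mice in 4 groups. Old Mito-Q mice (5 libraries) were over 18 months old and received 5 daily intraperitoneal injections of Mito-Q at 2 mg/kg, a ubiquinone antioxidant that accumulates in mitochondria. Old control mice (3 libraries) were of the same age. Young CCCP mice (5 libraries) were 8 to 12 weeks old and received 1 intraperitoneal injection of CCCP at 0.3 mg/kg, a protonophore that uncouples mitochondrial respiration. Young control mice (4 libraries) were of that younger age. No genetic change is given for any group. Stem cells were sorted from c-Kit enriched marrow by surface markers, as CD150+ CD48- cells within the lineage-negative Sca1+ cKit+ fraction. The labels give neither a vehicle for the controls nor a source animal for any library, so p-values measure the spread between libraries, which may be partly technical.

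RNA polymerase II cannot find a promoter alone. TFIID, built from the TATA-binding protein TBP and its associated factors (the Taf proteins), recognises core promoters. TFIIA and TFIIB then stabilise it there, TFIIF escorts the polymerase, TFIIE recruits TFIIH, and TFIIH opens the DNA and phosphorylates the polymerase tail. Mediator, a complex with head, middle and tail modules held together by the Med14 scaffold, carries signals from enhancer-bound activators to this machinery, and a detachable kinase module controls its contact with the polymerase. Several Taf proteins also serve in the SAGA coactivator, and TAF1A to TAF1D belong to the SL1 factor of RNA polymerase I.

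Promoter sequences were printed for Med14 and Taf1, a pair of genes lower in old than in young controls below. RefSeq promoter windows on GRCm38.p6, from 250 bases before to 50 bases after the start site, were matched for 61 of the 69 genes. Taf7 was not among the 61, so its promoter was not searched for any motif. Med14 lies at chrX:12675369-12762073 on the minus strand and Taf1 at chrX:101532734-101601789 on the plus strand in GENCODE M21, and neither shares exon bases with another gene. Capitals mark the letters CCGGAAG or their reverse complement CTTCCGG, a core form bound by ETS-family factors. The windows lie at chrX:12761924-12762223 for Med14 and at chrX:101532485-101532784 for Taf1 and are written 5′ to 3′ on each gene's own strand.
Med14 promoter: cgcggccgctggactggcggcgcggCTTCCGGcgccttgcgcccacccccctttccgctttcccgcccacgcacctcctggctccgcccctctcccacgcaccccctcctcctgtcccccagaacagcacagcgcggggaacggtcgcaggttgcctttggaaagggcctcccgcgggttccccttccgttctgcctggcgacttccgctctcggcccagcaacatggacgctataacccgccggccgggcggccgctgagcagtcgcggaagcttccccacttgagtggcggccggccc
Taf1 promoter: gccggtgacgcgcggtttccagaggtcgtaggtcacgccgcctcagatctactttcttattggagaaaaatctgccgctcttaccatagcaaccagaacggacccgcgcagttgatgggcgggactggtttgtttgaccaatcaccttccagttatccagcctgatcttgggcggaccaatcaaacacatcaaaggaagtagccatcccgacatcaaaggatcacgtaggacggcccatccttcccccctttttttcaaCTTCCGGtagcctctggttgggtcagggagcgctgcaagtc
Med14 carried its match 225 bases upstream of the start site and Taf1 carried its match 9 bases downstream of it, both on the strand opposite to the gene. At least 1 such match on either strand, in any window of the gene, was found in 22 of the 61 genes (36.1%). The share was 9.93% of all 27025 genes with a window. The other motifs were searched on both strands in the same windows. The letters GGGCGG, bound by Sp-family factors, were in 68.9% of the 61 genes against 38.2% of all genes. TGACG, the core of the cyclic AMP response element, was in 44.3% against 23%, and AAGATGG, bound by YY1, in 18.0% against 7.28%. TATAAA was in 16.4% against 15.7%, CCAAT in 36.1% against 41.1%, and TGANTCA, the AP-1 site, in 6.56% against 8.97%. The full element TGACGTCA was in 3 of the 61 genes (4.92%), against 2.03% of all genes. The EGR site GCGTGGGCG was in 2 (3.28%), with Med14 among them, against 0.707% of all genes. The palindromic NRF1 site was in 0 of the 61, against 1.07% of all genes. A match describes letters only, and TGACGTCA contains TGACG. All 27025 genes were counted whether or not they had reads here, and no share was taken over genes with reads alone. The shares therefore do not set the 61 apart from other genes with reads.

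Facts that touch every comparison are given here once. Reads assigned to genes numbered 5649611 in young control 3 to 8120443 in young CCCP 1. Reads that fell in no annotated gene made up 65.47% in young CCCP 3 and 62.37% in old control 1, against 20.15% to 53.28% in the other libraries. Young CCCP 3, old control 1 and young control 3 also correlated least with the rest, with median Spearman coefficients of 0.682, 0.799 and 0.803 against 0.828 to 0.863. All 10 markers of the stem cell gate and identity, Kit, Ly6a and Slamf1 among them, had reads in every library, with a summed 2060 to 5110 CPM (read counts scaled to library size with TMM factors). Cd48, which the gate excludes, stayed between 0 and 19.2 CPM. Summed markers of neutrophils and their precursors ran from 983 to 14200 CPM in old Mito-Q, 1090 to 2390 in old control, 762 to 16300 in young CCCP and 416 to 2200 in young control. Of the 10, 1 was at 0 in old control 1 and in young control 3, and none in the other libraries. Summed markers ran from 516 to 2230 CPM for monocytes and macrophages, 68.2 to 1250 for erythroid cells, 164 to 368 for megakaryocytes, 39.8 to 191 for B cells, 78.7 to 263 for T and NK cells and 68.8 to 173 for endothelial and stromal cells over all libraries. In bulk RNA, fewer cells of a type and less RNA per cell cannot be told apart.

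The machinery was present throughout at moderate levels. Of the 66 genes tested, 65 had at least 1 read in each of the 17 libraries, Gtf2a1l being the exception, and 64 averaged between 10 and 200 CPM over the 17 libraries. Exon length here is that of all annotated exons of a gene merged over its transcripts, so levels per kb depend on the annotation. Divided by exon length, the highest level was that of Gtf2f1, the large TFIIF subunit, at 55.0 ± 14.8 CPM per kb of exon (SD over 17 libraries). Taf7, a TFIID subunit that binds TAF1 and restrains its acetyltransferase activity, was next at 39.6 ± 35.2, with 5.3 in its lowest and 120 CPM per kb in its highest library. Mediator genes followed, with Med28 and Med30, grouped here with the tail, at 36.8 ± 25.6 and 35.3 ± 17.4 and Med11 of the head at 33.6 ± 20.9 CPM per kb. The ranges of these 5 genes over libraries overlap, so their order is not firm.

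Some genes were low per length. Med13, which joins the kinase module to core Mediator, had 4.77 ± 3.07 CPM per kb, Med15 of the tail 5.32 ± 1.69 and Taf4, a histone-fold subunit of TFIID, 3.82 ± 2.5. Germ-line paralogs were lower still. Gtf2a1l, a testis form of the large TFIIA subunit, had 0.817 ± 1.11 CPM per kb against 9.04 ± 2.5 for Gtf2a1. Taf7l had 0.198 ± 0.467 CPM per kb against the 39.6 of Taf7. By contrast Taf4b, the germ-cell form of Taf4, had 6.49 ± 3.68 CPM per kb and Taf4 itself 3.82, which overlap within their spread.

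**Figure D1:**
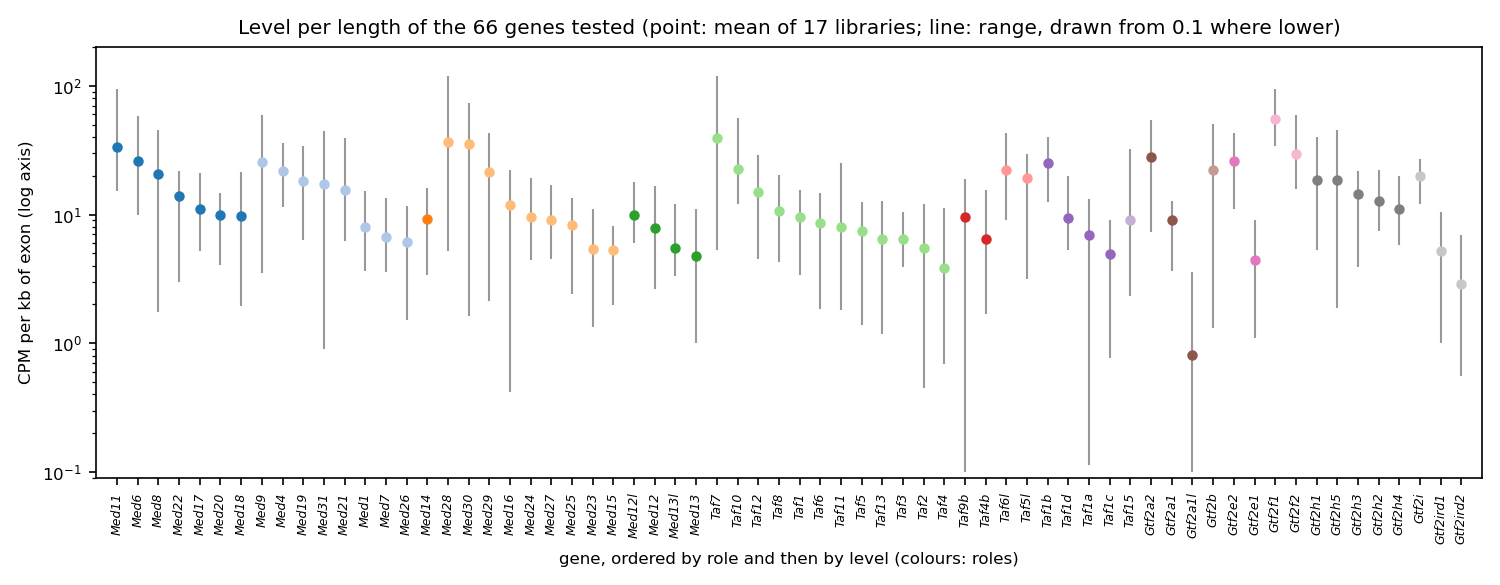
Level per exon length of each gene tested, in CPM per kb on a log axis, ordered by role; points are means over 17 libraries and lines run from the lowest to the highest library and start at 0.1 where the lowest is below it. Gtf2f1 stands highest at 55.0 and Gtf2a1l lowest at 0.817 CPM per kb, and Taf7 spans 5.3 to 120.

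Of the 3 genes below the filter, Med10, a core middle subunit, and Taf9, a histone-fold subunit of TFIID and SAGA, had means of 0.0595 and 0.16 CPM per kb. Other annotated genes cover 92.8% of the exon bases of Med10, mainly Gm26819 at 0.445 CPM, and 73.8% of those of Taf9, mainly Ak6 at 21 CPM. The deposited files set aside between 4.287% and 14.54% of reads as ambiguous, meaning that they hit more than 1 gene, so the levels of this pair are not read as absence. Taf9b, the close paralog of Taf9, had 9.62 ± 5.05 CPM per kb. Among the genes tested, Taf10 shared 45.9% of its exon bases, mostly with Ilk (0.0484 CPM), Med20 28.4%, Taf6 26.5% and Med31 26.3%. The counting strand is not given in the sources used here, so the values of these genes are uncertain.

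Age was the comparison with most calls. Old control cells had less Taf7, Taf1 and Med14 transcript than young control cells, with log2 fold changes from -1.86 to -1.46, and no gene of the machinery was called higher. These were 3 of the 66 genes tested (4.55%) at a Benjamini-Hochberg adjusted p below 0.05 in edgeR's quasi-likelihood test, against 1.69% of all 24523 genes (0.522% higher and 1.17% lower). Over all genes 128 were higher and 287 lower, or 190 and 237 with upper-quartile scaling. The median log2 fold change was 0.08 over the 66 genes and 0.16 over all genes, and 37 of the 66 were positive. Of the 16730 protein-coding genes tested, 114 were called higher and 280 lower, and their median was 0.08.

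Taf7 (chr18:37640491-37644204, minus strand, no exon overlap) had 18.0, 48.4 and 81.3 CPM in old control against 121, 143, 325 and 125 CPM in young control. All 3 old control libraries lay below all 4 young control libraries. Its log2 fold change was -1.86 ± 0.46 (SE), with an adjusted p of 0.0318 in edgeR. Taf1, the largest TFIID subunit, which reads acetylated histones through its bromodomains, had 45.3, 34.1 and 28.8 CPM in old control against 129, 62.1, 132 and 75.0 CPM in young control. The groups did not overlap, and its log2 fold change was -1.46 ± 0.36 (edgeR adjusted p = 0.0351). Med14, the Mediator scaffold, had 45.9, 29.9 and 44.7 CPM in old control against 115, 116, 142 and 102 CPM in young control. The gap between the groups was wider than either group's range, with a log2 fold change of -1.56 ± 0.36 (edgeR adjusted p = 0.0222).

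**Figure D2:**
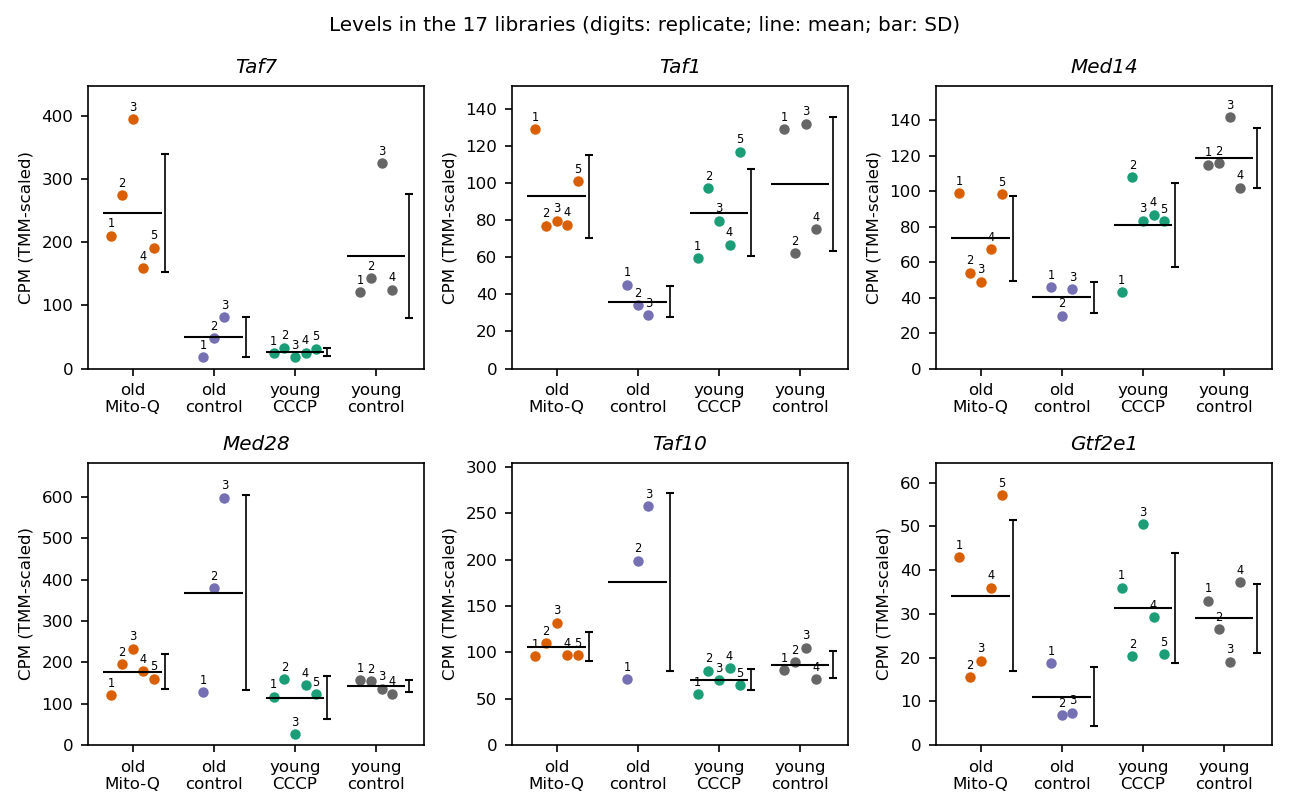
CPM of 6 genes in each library by group (digits give the replicate, lines the mean, bars the SD; axes start at 0). Taf7 is at most 81.3 CPM in the old control and young CCCP libraries and at least 121 CPM in the old Mito-Q and young control libraries.

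All 3 calls leaned on particular libraries. Without old control 2 none of the 3 was called (Med14 adjusted p = 0.222, Taf1 0.208, Taf7 0.184), and without old control 3 only Taf7 was. Without young control 3, Med14 alone was called and the Taf7 change was -1.39 (adjusted p = 0.101). Without young control 1, Taf1 was lost (adjusted p = 0.116), and without old control 1, Taf7 was (-1.40, adjusted p = 0.111). Without old control 1, 6 genes were called, with Med14, Taf1 and Taf4b lower and Med11, Med28 and Taf10 higher, against 2.54% of all genes (1.5% higher, 1.04% lower). With DESeq2, 7 were called, against 5.14% of all genes, namely these 6 and Taf7. Over the 17 alternatives run, the log2 fold changes stayed between -1.69 and -1.42 for Med14, between -1.63 and -1.31 for Taf1 and between -2.42 and -0.97 for Taf7.

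The next genes by p differed from old to young control without passing the adjusted threshold. Taf4b, the TAF4 paralog, had 28.8, 9.90 and 8.67 CPM in old control against 53, 21.6, 80.5 and 55.9 in young control (log2 fold change -1.73 ± 0.56, edgeR adjusted p = 0.129). Gtf2e1, the large TFIIE subunit that recruits TFIIH, had 18.8, 6.85 and 7.43 CPM in old control against 33, 26.5, 19.1 and 37.3 in young control (-1.39 ± 0.54, adjusted p = 0.234). A further 3 genes leaned the other way. Med28 had 128, 379 and 598 CPM in old control against 156, 155, 136 and 124 in young control (1.37 ± 0.44, adjusted p = 0.131). Taf10, a histone-fold subunit shared by TFIID and SAGA, had 71.0, 199 and 258 CPM in old control against 81.0, 89.8, 105 and 71.1 in young control (1.02 ± 0.34, adjusted p = 0.143). Med11 had 18.0, 75.6 and 98.9 CPM in old control against 22.9, 25.4, 27.8 and 24.1 in young control (1.36 ± 0.47, adjusted p = 0.171). In each of these 3 genes old control 1 lay within or below the young control range and old control 2 and 3 lay far above it. At an unadjusted p below 0.05, 3 genes were higher and 7 lower, 15.2% of the 66 against 14.2% of all genes (6.77% higher, 7.45% lower). Groups did not overlap for 2 genes that were higher and 8 that were lower (15.2%), against 11.5% of all genes (5.04% higher, 6.5% lower).

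Old mice given Mito-Q differed from old controls in Taf7. It had 210, 274, 395, 159 and 191 CPM in old Mito-Q against 18.0, 48.4 and 81.3 CPM in old control, with no overlap. The log2 fold change was 2.32 ± 0.45 with an edgeR adjusted p of 0.00767. This was 1 of the 66 genes tested (1.52%), against 0.542% of all genes (0.526% higher and 0.0163% lower). With DESeq2, Taf1 was called as well, against 1.8% of all genes. Without old control 1 the change was 1.86 (adjusted p = 0.0603), and without old control 2 it was 2.30 (adjusted p = 0.0906). The other 16 alternatives kept the call. Of the 10 neutrophil markers, 9 had positive fold changes and 0 were called. Neutrophil sums had a median of 5700 CPM in old Mito-Q and 2320 CPM in old control. Old Mito-Q 2 held the lowest old Mito-Q sum, at 983 CPM, and had 274 CPM of Taf7. The old control sums ran from 1090 to 2390 CPM. Prtn3, the marker with a negative fold change (-0.64), averaged 1010 CPM in old control. The part of neutrophil content in the Mito-Q result for Taf7 was not tested.

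Taf1 had 129, 77.1, 79.7, 77.6 and 101 CPM in old Mito-Q against 45.3, 34.1 and 28.8 CPM in old control, with no overlap. Its log2 fold change of 1.36 ± 0.35 missed the threshold (edgeR adjusted p = 0.0941, and 0.0136 to 0.444 over the alternatives). Med14 had 99.1, 54.1, 49.0, 67.2 and 98.2 CPM in old Mito-Q against 45.9, 29.9 and 44.7 CPM in old control. The groups did not overlap, though the lowest Mito-Q library was close to the highest control (0.87 ± 0.34, adjusted p = 0.373). Gtf2e1 had 43, 15.5, 19.3, 36 and 57.2 CPM in old Mito-Q against 18.8, 6.85 and 7.43 CPM in old control (1.62 ± 0.53, adjusted p = 0.274). Med13 had 109, 49.1, 52.0, 93.9 and 18.8 CPM in old Mito-Q against 29.1, 10.9 and 23.3 CPM in old control (1.61 ± 0.58, adjusted p = 0.333), and 1 Mito-Q library fell within the control range.

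Of the 8 genes of smallest p, 3 leaned down under Mito-Q. Med28 had 120, 196, 233, 179 and 160 CPM in old Mito-Q against 128, 379 and 598 CPM in old control (-1.05 ± 0.42, edgeR adjusted p = 0.373). Taf10 had 96.0 to 132 CPM in old Mito-Q against 71.0 to 258 CPM in old control (-0.72 ± 0.32, adjusted p = 0.442). Med7, a middle subunit, had 11.1 to 23.5 CPM in old Mito-Q against 19.9 to 38.8 CPM in old control (-0.996 ± 0.485, adjusted p = 0.498). At an unadjusted p below 0.05, 5 genes were higher and 2 lower, 10.6% of the 66 against 10% of all genes (5.12% higher, 4.93% lower). Groups did not overlap for 6 genes that were higher and 2 that were lower (12.1%), against 6.07% of all genes (3.87% higher, 2.2% lower). The median log2 fold change was -0.09 over the 66 genes and -0.12 over all genes. Among the 16730 protein-coding genes tested, 119 were called higher and 3 lower, and their median was -0.04. The age and Mito-Q comparisons share the 3 old control libraries, so a low or high old control value enters both with opposite sign.

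Young mice given CCCP also differed from young controls in Taf7, which was lower. It had 23.8, 33, 17.5, 24.9 and 31.5 CPM in young CCCP against 121, 143, 325 and 125 CPM in young control. All 5 CCCP libraries lay within a narrow band, far below the lowest control. The log2 fold change was -2.77 ± 0.39, with an edgeR adjusted p of 8.41e-05, and it was called in all 19 alternatives run, at values between -2.92 and -2.18. This was 1 of the 66 genes (1.52%), against 0.718% of all genes (0.0652% higher and 0.652% lower). With DESeq2, Med29 was called as well, against 2.27% of all genes. All 10 neutrophil markers were positive under CCCP and 1 was called. At an unadjusted p below 0.05 in edgeR, 9 of the 10 were higher, against 6.35% of all genes. The young CCCP neutrophil sums had a median of 9610 CPM. Young CCCP 2 held the lowest of them, at 762 CPM, and had 33 CPM of Taf7. The young control sums ran from 416 to 2200 CPM, with a median of 517 CPM. The part of neutrophil content in the CCCP result for Taf7 was not tested.

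No other gene passed the threshold under CCCP. Med29, a tail subunit, had 13.3, 12.2, 2.72, 16.4 and 9.76 CPM in young CCCP against 30.5, 27.7, 54.6 and 32.3 CPM in young control. The groups did not overlap, and the log2 fold change was -1.73 ± 0.50 (edgeR adjusted p = 0.161). Taf11, a histone-fold partner of TAF13, had 28.1, 30.6, 9.92, 28 and 34.1 CPM in young CCCP against 37.7, 46.5, 137 and 38.5 CPM in young control (-1.31 ± 0.44, adjusted p = 0.264). Gtf2h2, the p44 subunit of the TFIIH core, had 39.0, 41.5, 41.0, 44.1 and 34.7 CPM in young CCCP against 78.6, 67.1, 65.1 and 68.2 CPM in young control. Its groups were tight and apart, at -0.80 ± 0.28 (adjusted p = 0.290). Gtf2h5, the smallest TFIIH subunit, had 7.19 to 49.6 CPM in young CCCP against 41.0 to 174 CPM in young control (-1.28 ± 0.50, adjusted p = 0.353).

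Med12l, the MED12 paralog of the kinase module, was the gene of smallest p that leaned up. It had 90.3, 189, 122, 108 and 229 CPM in young CCCP against 93.6, 76.1, 105 and 86.1 CPM in young control (0.71 ± 0.28, edgeR adjusted p = 0.359). Gtf2a2, the small TFIIA subunit, had 35.0 to 92.3 CPM in young CCCP against 88.1 to 199 CPM in young control (-0.94 ± 0.41, adjusted p = 0.400). Taf12, the histone-fold partner of TAF4, had 18.3 to 51.7 CPM in young CCCP against 43.7 to 110 CPM in young control (-0.84 ± 0.39, adjusted p = 0.432). The lowest CCCP library for Med29, Taf11, Gtf2h5, Gtf2a2 and Taf12 was young CCCP 3, in which the 66 genes had a median deviation of -0.77 log2(CPM + 1) from their means over libraries. At an unadjusted p below 0.05, 2 genes were higher and 7 lower, 13.6% of the 66 against 11.2% of all genes (6.35% higher, 4.8% lower). Groups did not overlap for 1 gene that was higher and 4 that were lower (7.58%), against 4.67% of all genes (1.78% higher, 2.89% lower). The median log2 fold change was -0.10 over the 66 genes and 0.21 over all genes. Among the 16730 protein-coding genes tested, 14 were called higher and 153 lower, and their median was 0.18.

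Old Mito-Q cells set against young control cells gave 0 calls in the machinery by edgeR, by DESeq2 and by limma-voom, against 0.143% of all genes in edgeR (0.13% higher, 0.0122% lower), 0.742% in DESeq2 and 0.86% in limma-voom. At an unadjusted p below 0.05, 2 genes were higher and 3 lower (7.58%, against 7.89% of all genes, 3.8% higher and 4.09% lower). Groups did not overlap for 1 gene that was higher and 1 that was lower (3.03%), against 3.01% of all genes (1.65% higher, 1.36% lower). Taf7 averaged 246 ± 93.3 CPM in old Mito-Q and 178.5 ± 98.3 CPM in young control (SD, n = 5 and 4), a log2 difference of 0.46 ± 0.38 (adjusted p = 0.906) with overlapping groups. Values of immediate early genes in the same libraries are given beside it. Fos, a subunit of AP-1, averaged 4770 CPM in old Mito-Q, 51.0 in old control, 15 in young CCCP and 1950 in young control. Egr1, a zinc-finger factor, averaged 2080, 120, 41.2 and 1330 CPM in those groups. Their part in the Taf7 result was not tested.

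By role, calls lay in TFIID (Taf7 and Taf1) and the Mediator scaffold (Med14). Among the 7 head genes, 6 were positive in old against young control with a median of 0.25 and none called, and 2 were positive in old Mito-Q against old control with a median of -0.18. The 8 middle genes tested had medians of 0.68 with age, -0.37 under Mito-Q and -0.12 under CCCP, again with 0 calls. Their summed level was 220 to 590 CPM in old control against 290 to 340 CPM in young control, and old control 1 held the 220. The 9 tail genes had medians of -0.28 with age, -0.19 under Mito-Q and -0.24 under CCCP.

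Of the 4 kinase module genes, 3 had negative age values, as did the median of the tail and Med14. Med12, Med13 and Med13l were negative in old against young control, at -1.13, -1.39 and -0.71, and Med12l was positive at 0.16. Under Mito-Q all 4 were positive, with a median of 0.61. None of the 4 was called, and the difference between modules was not tested. These 4 genes have 7704 to 15427 exon bases and Med14 has 8763, all above the 4138.5 at which genes are split by length below. The part of length in the values by module was not tested. The kinase module summed to 295 to 456 CPM in old Mito-Q, 188 to 282 in old control, 237 to 519 in young CCCP and 229 to 414 in young control, so the groups overlapped except old Mito-Q with old control.

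TFIID as a whole had 12 genes tested, with medians of -0.20 with age, -0.02 under Mito-Q and -0.37 under CCCP, where 10 of 12 were negative. Its subunits Taf2, Taf3, Taf5, Taf6 and Taf8 had log2 fold changes between -0.92 and 0.48 with age and no call in any comparison. Among the general factors, both TFIIF genes were positive with age, Gtf2f1 at 0.58 ± 0.32 and Gtf2f2 at 0.65 ± 0.42, and neither passed. Gtf2b, the only TFIIB gene, had 99.6 to 232 CPM in old Mito-Q, 57.1 to 158 in old control, 6.03 to 101 in young CCCP and 66.8 to 115 in young control. The 5 TFIIH genes had a median of -0.70 under CCCP with 4 of 5 negative and 0 called. Gtf2i, a signal-responsive factor that shares the Gtf2 name, had the highest mean CPM over the 17 libraries, though not in every group, at 172 ± 41.5 CPM in old Mito-Q, 164 ± 35.8 in old control, 236 ± 24.1 in young CCCP and 226 ± 55.6 in young control. All 3 genes of its family were negative with age, at -0.46 for Gtf2i, -0.80 for Gtf2ird1 and -1.03 for Gtf2ird2, and none was called.

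Taf genes outside TFIID were not called either. Taf1b of SL1 had 73.0 ± 23.1 CPM in old Mito-Q, 71.8 ± 10.6 in old control, 59.1 ± 19.2 in young CCCP and 63.4 ± 27.9 in young control. Taf1c, the lowest SL1 gene per length, had 2.67 to 10.7 CPM in old control against 9.14 to 22 CPM in young control (-1.36 ± 0.68, edgeR adjusted p = 0.365). The SAGA subunits Taf5l and Taf6l were at -0.51 and 0.54 with age. Taf15, an RNA-binding protein of the FET family that associates with TFIID, ran from 6.79 to 94.1 CPM over the libraries with no call.

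**Figure D3:**
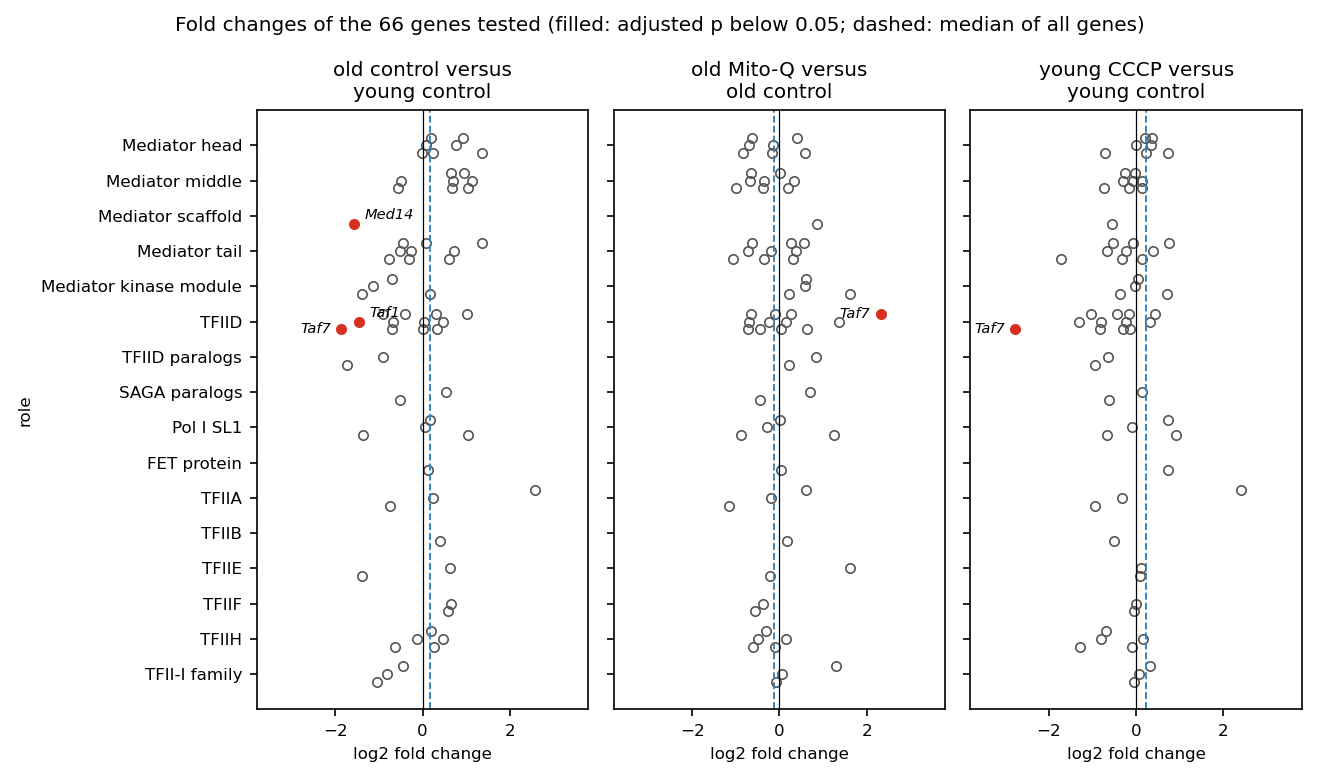
Log2 fold changes of the 66 genes tested in 3 comparisons, by role; filled points are called (edgeR adjusted p below 0.05) and the dashed line is the median of all genes. Calls are Taf7, Taf1 and Med14 lower with age, Taf7 higher under Mito-Q and Taf7 lower under CCCP.

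The age count was 15 when 3 libraries were set aside together, and 17 with limma-voom and quality weights on all 17 libraries, against 13.4% of all genes. The weights were lowest for the same 3 libraries, at 0.259 for young CCCP 3, 0.302 for young control 3 and 0.296 for old control 1. Old control 2 had the highest, at 2.51, so these counts are not independent of each other. Young CCCP 3, young control 3 and old control 1, the libraries that correlate least with the rest, were left out in an alternative planned with earlier results of these data known. With 14 libraries, 15 of 66 genes were called between old and young control (22.7%), 9 higher and 6 lower, against 9.79% of all genes (5.49% higher, 4.3% lower). The median of all genes was then -0.40, against 0.16 with 17 libraries. Those higher were Med11 at 1.88, Med21 at 1.78, Med28 at 1.78, Med31 at 1.91, Taf10 at 1.53, Taf12 at 1.12, Taf6l at 1.12, Gtf2a2 at 1.06 and Gtf2h5 at 1.55. Those lower were Med12 at -1.61, Med14 at -1.55, Taf1 at -1.47, Taf4b at -2.20, Gtf2e1 at -2.15 and Gtf2ird1 at -1.72. Taf7 was not among them (-0.97, edgeR adjusted p = 0.0749). This leaves 2 old control libraries on one side, so the comparison rests on old control 2 and 3.

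For Mito-Q against old control the 14 libraries gave 8 calls (12.1%), against 4.41% of all genes (1.9% higher, 2.51% lower), and the median of all genes was 0.33. Taf7 at 1.89, Taf1 at 1.53, Gtf2e1 at 2.23 and Taf5l at 1.17 were higher, and Med28 at -1.49, Med11 at -1.301, Med9 at -1.17 and Taf10 at -1.13 were lower. For CCCP the count was again 1, Taf7 at -2.18, against 0.925% of all genes (0.0894% higher, 0.835% lower), and for old Mito-Q against young control it was 0, against 0.459% (0.311% higher, 0.148% lower).

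**Figure D4:**
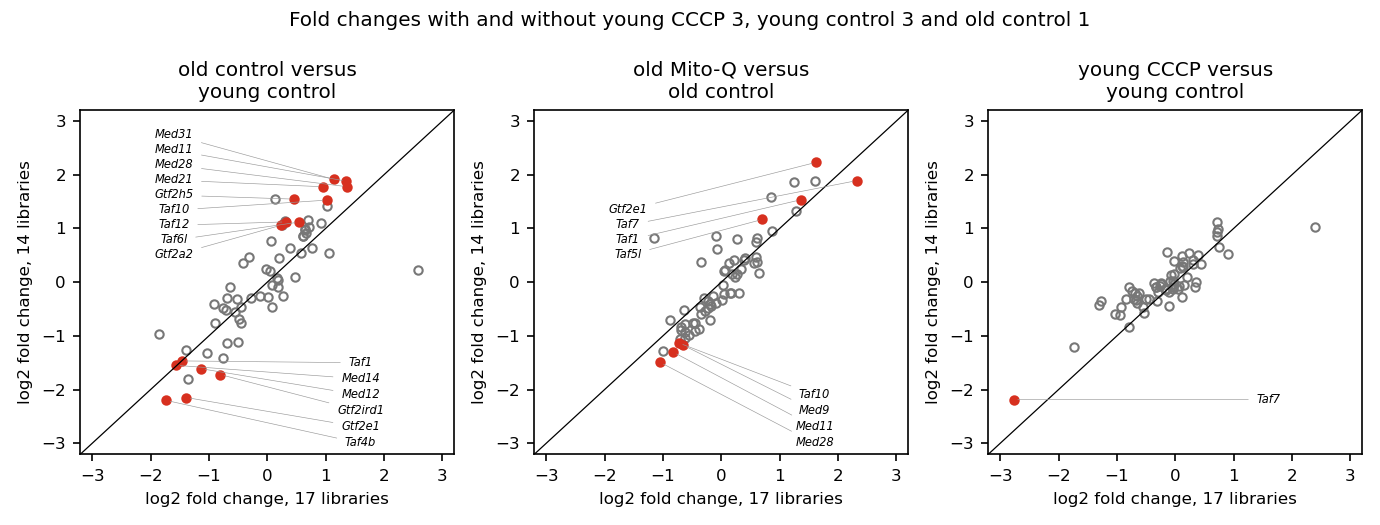
Log2 fold change of each gene with all 17 libraries (x axis) and with 14 (y axis), for 3 comparisons; filled, named points are called with 14 libraries and the diagonal marks equal values. Calls number 15 with age, 8 under Mito-Q and 1 under CCCP.

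Fold changes with age followed exon length, merged over all annotated transcripts of a gene. Over the 66 genes the Spearman coefficient between exon length and the log2 fold change of old against young control was -0.57, against -0.24 over 16730 protein-coding genes. With coding length it was -0.68 against -0.21. The points share libraries, and the coefficient is given as a description. Split at 4138.5 bases of exon, the 33 longer genes had a median of -0.46 with 13 positive, and the 33 shorter genes 0.46 with 24 positive. In all protein-coding genes the same split gave -0.17 for longer and 0.37 for shorter genes. Under Mito-Q the sign turned, with a coefficient of 0.46 against 0.19 over protein-coding genes, and with coding length it was 0.54 against 0.17. Under CCCP the coefficient was 0.03 against 0.04 with exon length and 0.28 against 0.17 with coding length. For old Mito-Q against young control, which uses no old control library, it was -0.32 against -0.14 with exon length and -0.38 against -0.13 with coding length. Med14, Med13 and Taf1, with 8763, 10840 and 8558 exon bases, were on the long side, and Med11 with 1046 on the short. Taf7 has 3302 exon bases and its values do not follow that order.

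The length pattern was strongest in old control 2 and 3 but was not confined to them. The median deviation of longer genes minus that of shorter genes, on the log2(CPM + 1) scale, was -0.98 in old control 2 and -1.14 in old control 3, but -0.03 in old control 1. It was -0.56 in old Mito-Q 3 and between -0.21 and 0.07 in the other old Mito-Q libraries. The young CCCP libraries ran from -0.05 to 0.48 and the young control libraries from -0.04 to 0.30. Old control 2 and 3 also had the smallest shares of reads in no gene, at 20.15% and 23.49%. The part of these properties in the age calls was not tested.

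**Figure D5:**
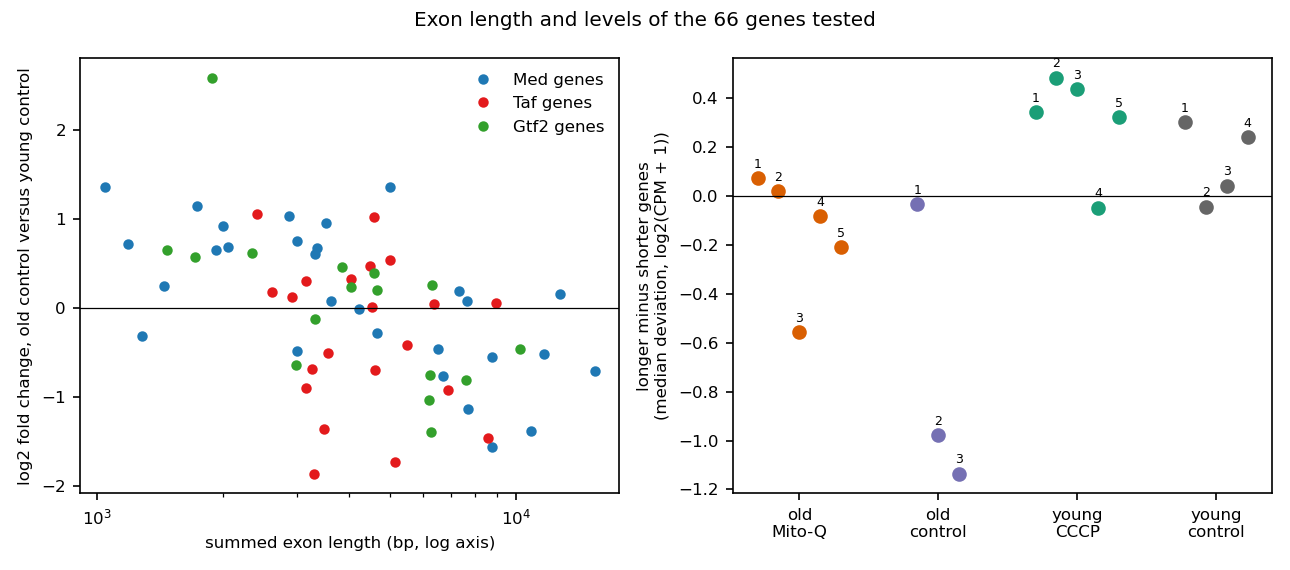
Left, exon length (log axis, bases) against the log2 fold change of old versus young control for the 66 genes. Right, longer minus shorter genes in median log2(CPM + 1) deviation per library; old control 2 and 3 lie at -0.98 and -1.14 and no other library is below -0.56.

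Partners of these complexes, from lists of related genes, gave 0 calls by edgeR in all 4 comparisons. TBP itself averaged 67.0 CPM in old Mito-Q, 79.0 in old control, 59.8 in young CCCP and 69 in young control. Of 5 TBP-related genes tested, Drap1, which forms the NC2 repressor with Dr1, came nearest with age, at 89.8 CPM in old control against 36.2 CPM in young control (1.31 ± 0.39, adjusted p = 0.0918), and Btaf1, which removes TBP from DNA, was at -1.11 ± 0.45. Under Mito-Q, Drap1 averaged 39.2 CPM against 89.8 CPM in old control (-1.20 ± 0.37, adjusted p = 0.224). Ccnc, the cyclin of the Mediator kinase, averaged 29.0 CPM in old control against 59.3 CPM in young control (-1.03 ± 0.41, adjusted p = 0.245). It averaged 64.4 CPM in old Mito-Q against 29.0 CPM in old control (1.15 ± 0.40, adjusted p = 0.312) and 24.7 CPM in young CCCP against 59.3 CPM in young control (-1.27 ± 0.35, adjusted p = 0.131). Its kinases Cdk8 and Cdk19 had unadjusted p above 0.05 in these 3 comparisons. Of the 15 SAGA genes tested, Taf5l and Taf6l included, 1 was higher and 1 lower with age at an unadjusted p below 0.05. Of the 10 genes of TFIIIB and TFIIIC, 0 were higher and 3 lower by that rule, which 6.77% and 7.45% of all genes met in those directions.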

How the data were processed

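Read counts per Ensembl gene were deposited by the authors for 17 libraries of sorted stem cells. Per the submitters' processing notes, Trim Galore, STAR 2.7 and the GRCm38 build were used, with no role or order given; the counting program, annotation and strand setting are not given in the sources used here. Footer entries (5 per file) were kept out of library sizes; their shares are in the report. GENCODE M21 named 54809 of 54838 genes.

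A single edgeR 4.0.16 model held all 17 libraries (R 4.3.3, TMM factors, filterByExpr minimum count 10, robust quasi-likelihood F-test, two-sided). Calls have a Benjamini-Hochberg adjusted p below 0.05 over 24523 genes. SE is the log2 fold change over the square root of F. Scripts were tested on simulated data. A count of 3 corresponds to 0.298 to 0.653 CPM, counting error only. No libraries in a group were duplicates (chi-square per gene of at least 18.2). Alternatives used DESeq2 1.42.0, limma-voom (limma 3.58.1), other scalings, filters and left-out libraries.

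Members and lists were chosen with earlier results of these data known. Named genes are those called, the 8 of smallest p in each of 3 comparisons, the highest and lowest per length in each role, and those below the filter. Other genes in the report were chosen after their values were seen.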

Additional observations from a re-analysis of the deposited data

Results flagged for a closer look

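Of 113 gene and group pairs in groups of 4 or 5 libraries, 17 (15%) had 1 library far from the rest. The rule flags about 1 in 20 for independent, evenly spread values. These pairs share libraries, so the share is not read as an excess. Flags for Med10, Taf9 and Taf7l, below the count filter, arise where a single library has reads and the others have few or none. The 17 fell mostly in 3 libraries, with 5 in young control 3, 4 in young CCCP 3 and 4 in old Mito-Q 3.

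Young control 3 was far above the nearest other young control library for Taf7 (325 against 143 CPM), Med29 (54.6 against 32.3 CPM), Taf11 (137 against 46.5 CPM), Taf15 (56.8 against 12.7 CPM) and Taf9 (4.13 against 0.273 CPM). Without young control 3, Taf7 in young CCCP against young control stayed called. Young CCCP 3 was far below the nearest CCCP library for Taf11 (9.92 against 28 CPM), Med9 (6.8 against 48.2 CPM) and Taf5l (11.3 against 81.3 CPM) and above it for Med10 (3.5 against 0.119 CPM).

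Old Mito-Q 3 was far above the nearest Mito-Q library for Gtf2h5 (156 against 61.3 CPM), Gtf2a2 (208 against 124 CPM), Taf6l (183 against 107 CPM) and Gtf2b (232 against 130 CPM). Old Mito-Q 4 had the only reads of its group for Med10 (0.163 CPM) and Taf9 (0.325 CPM), both below the level of 3 counts. Young CCCP 1 had the only Taf7l reads among CCCP libraries (2.98 CPM). Young CCCP 5 stood above the others for Gtf2h4 (66.1 against 36.8 CPM).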

How the results depend on the processing

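Counts of genes called with age (3 of 66) were 7 with DESeq2 (3 higher, 4 lower), 17 with limma-voom and quality weights (9 higher, 8 lower), 0 in a fit of the 2 groups alone and 15 without the 3 libraries together, and 0 to 6 when a library was left out in turn. Under Mito-Q the count (1) was 2 with DESeq2, 4 with limma-voom, 8 without the 3 libraries and 0 to 1 leaving out a library. Under CCCP it (1) was 2 with DESeq2, and 1 in every leave-one-out fit. Over all genes DESeq2 called 5.14%, 1.8% and 2.27% in these comparisons and limma-voom 13.4%, 5.05% and 1.47%. The cause of these differences was not tested. No direction reversed among the genes called or of smallest p in their comparison. Of 35 named genes tested, 2, 5, 4 and 9 changed sign without the 3 libraries in the age, Mito-Q, CCCP and old Mito-Q against young control comparisons, and none of these was called in either fit; Taf11 with age, for example, was at 0.36 without them and at -0.41 with all libraries. Of the values of single genes under alternatives, 386 kept their side of the threshold, 28 newly passed it and 18 no longer did. Upper-quartile scaling moved the median of all genes with age to 0.28 and under Mito-Q to -0.25, and library totals moved it under CCCP to 0.33, where the median of the 66 genes turned to 0.01. Replicate numbers did not pair libraries (correlations of deviations from -0.11 to 0.292 in 22 pairs, 5 above 0.1). A fit with the replicate block gave 3, 1, 1 and 0 calls in the 4 comparisons. Shares over all genes are not given for the 2-group fit, the replicate block or leaving out a library, save old control 1 with age. Those counts are therefore not read as a trait of the 66 genes.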
